A study of Mus musculus with 4 samples.

Results

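The BCL2 family of apoptosis regulators was examined in female mouse ESCs of the LF2 line (strain 129/J), an established embryonic stem cell line grown on feeder cells and passed without feeders before treatment. The members were taken by gene symbol from a list of 10 genes, and 9 of them had a value among the 9779 genes analysed, which were *Mcl1*, *Bcl2l1*, *Bax*, *Bak1*, *Bid*, *Bad*, *Bcl2l11*, *Bbc3* and *Pmaip1*. *Bcl2* was not analysed here. RNA-Seq was performed under 4 conditions, all of 24 hr: PBS+DMSO, PBS+GSK-J4 (10 μM GSK-J4), AA+DMSO (50 μg/ml L-ascorbic acid, AA) and AA+GSK-J4 (both compounds). PBS stands in for AA and DMSO is the vehicle of GSK-J4, a small molecule inhibitor of JmjC histone demethylases. The comparisons ask how demethylase inhibition, without or with AA, moved the transcripts of genes that promote or restrain cell death. There was 1 library per condition, no test was run and no p-value is given, so a difference is one between those libraries.

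BCL2 family proteins decide whether mitochondria are opened to start apoptosis. *Bax* and *Bak1* encode the effectors that form pores in the outer mitochondrial membrane. *Mcl1*, *Bcl2l1* (BCL-XL) and *Bcl2* encode the pro-survival proteins that hold the effectors in check. The BH3-only genes *Bbc3* (PUMA), *Pmaip1* (NOXA), *Bid*, *Bad* and *Bcl2l11* (BIM) encode stress sensors that neutralise the pro-survival proteins or activate the effectors directly. Pluripotent cells are known for a low threshold to apoptosis, and *Bbc3*, *Pmaip1* and *Bax* are textbook p53 targets.

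Expression is given as FPKM, fragments counted on a gene divided by its exon length and by the depth of the library, which allows levels of different genes to be compared per length. A change is given as the log2 ratio of FPKM + 1, a scale on which weakly expressed genes appear to change less than they do. The 7 embryonic stem cell markers with a value, out of 8 listed, lay between 37.4 and 867 FPKM in every library, whereas the 3 feeder fibroblast markers with a value, out of 8 listed, lay between 1.78 and 4.28 FPKM, with none at 0. The summed level of the stem cell markers was 1892 to 2124 FPKM in the DMSO libraries and 1177 to 1311 in the GSK-J4 libraries, that of the feeder markers 7.54 to 8.07 and 8.43 to 8.85, and the part of these shifts in the member ratios was not tested. FPKM summed over all genes was 360621 in PBS+DMSO and 342327 in AA+DMSO, but 275575 in PBS+GSK-J4 and 271205 in AA+GSK-J4. The median log2 ratio of all genes that reached an FPKM of 1 in 1 or both of the libraries compared was -0.17 for GSK-J4 without AA and -0.16 with AA. Dividing each library by its upper quartile gave 0.07 and 0.07 instead, and scaling all to the same total gave 0.17 and 0.14. Member ratios near 0 therefore take their sign from the scaling. Because the RNA came from bulk cultures, loss of cells of a type and less RNA per cell cannot be told apart.

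In GSK-J4 treated cells the BCL2 family did not move as a block. The BH3-only genes *Bbc3* and *Pmaip1* were close to 2-fold higher with GSK-J4 both without and with AA, the effectors *Bax* and *Bak1* were lower in FPKM and the pro-survival genes *Mcl1* and *Bcl2l1* had log2 ratios between -0.14 and -0.01. No member passed the 2-fold threshold on the log2(FPKM + 1) scale in either comparison: 0 of 9 members were at least 2-fold higher, against 4.96% of 9196 genes without AA and 4.13% of 9139 genes with AA. Likewise 0 of 9 were at least 2-fold lower, against 3.5% and 3.38% of genes. At a 1.5-fold threshold, 3 members (*Bbc3*, *Pmaip1* and *Bid*) were higher without AA, where 11.6% of all genes were, and 2 (*Bbc3* and *Pmaip1*) with AA, where 10.1% were. One member, *Bak1*, was at least 1.5-fold lower in each comparison, against 19.3% and 17.8% of genes. The median log2 ratio of the 9 members was -0.03 without AA and -0.14 with AA.

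**Figure D1:**
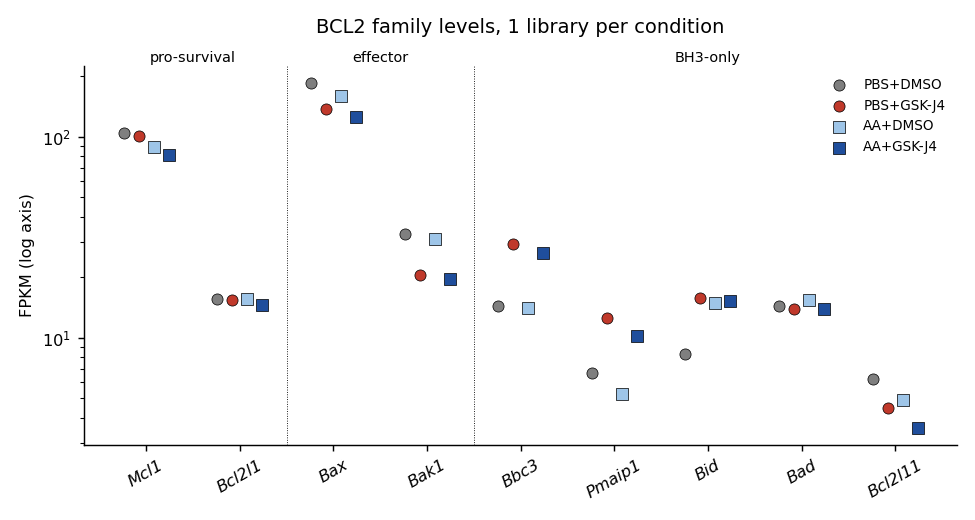
FPKM of the 9 members on a log axis, 1 point per library, with circles for PBS (grey DMSO, red GSK-J4) and squares for AA (light blue DMSO, dark blue GSK-J4). *Bax* and *Mcl1* lie far above the rest in all 4 libraries, and the GSK-J4 points of *Bbc3* and *Pmaip1* lie above both DMSO points.

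The order of the levels was led by an effector and a pro-survival gene. *Bax* was highest in every library, between 125 and 186 FPKM, and *Mcl1* was second, between 80.9 and 105 FPKM. *Bcl2l11* was lowest in every library, between 3.57 and 6.26 FPKM, with *Pmaip1* next above it. In both DMSO libraries *Bak1* ranked next below *Mcl1*, and *Bbc3* took that place in both GSK-J4 libraries. *Bcl2l1*, *Bad* and *Bbc3* lay between 14.0 and 15.6 FPKM in the DMSO libraries. *Bcl2l1* was the highest of them in both, while *Bad* and *Bbc3* changed places, so the order of the latter pair was not resolved.

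*Bbc3* lies on chromosome 7, and its locus in the deposited tables runs from 16308329 to 16318204 (mm10). Positions of the other members are also those of the tables' loci. Its FPKM was 14.3 with PBS and 14.0 with AA in DMSO, and 29.3 with PBS and 26.4 with AA in GSK-J4. Both GSK-J4 libraries lay above both DMSO libraries, which were close to each other. How many of all genes were separated in this way was not counted. The log2 ratio of *Bbc3* was 0.98 without and 0.87 with AA, at percentile 94.9 and 94.6 of all genes tested. Across 11 alternative settings it lay between 0.83 and 1.35 without AA, or 0.72 and 1.19 with AA, and it was past the 2-fold threshold under each of the 4 ways of rescaling or centring.

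*Pmaip1* (chromosome 18, 66458553 to 66465594) was less abundant and showed the same pattern. Its FPKM was 6.64 with PBS and 5.22 with AA in DMSO, and 12.5 with PBS and 10.2 with AA in GSK-J4. Its log2 ratios were 0.82 and 0.85, at percentile 93.1 and 94.5 of all genes tested. The values of the GSK-J4 libraries did not overlap those of the DMSO libraries, but the share of all genes separated in this way was not counted. NOXA binds MCL1 in preference to BCL-XL, while PUMA binds all pro-survival proteins.

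*Bid* (chromosome 6, 120836213 to 120916856), which links death receptor signalling to mitochondria, behaved differently. Its FPKM was 8.31 with PBS and 14.8 with AA in DMSO, and 15.9 with PBS and 15.2 with AA in GSK-J4. Only the PBS+DMSO library stood apart, and the other 3 were close to each other. This gave a log2 ratio of 0.86 without but 0.04 with AA. The ratios differ by -0.82, and a difference at least that large was found for 3.12% of 8972 genes. The difference was not tested. The locus of the tables, of 80644 bases, is longer than the gene in GENCODE M21 (120891930 to 120916853). *Bid* shares that locus with *Bcl2l13* on the opposite strand, and whether the counting used strand is not given in the sources used here. *Bcl2l13* itself was at 9.01, 8.04, 9.04 and 7.94 FPKM in PBS+DMSO, PBS+GSK-J4, AA+DMSO and AA+GSK-J4, without the low value that *Bid* had in PBS+DMSO.

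The remaining BH3-only genes were not higher with GSK-J4 in the deposited FPKM. *Bad* (chromosome 19, 6938064 to 6951970), a sensor of growth factor signalling, was at 14.3 FPKM with PBS and 15.5 with AA in DMSO, and 14.0 with PBS and 13.9 with AA in GSK-J4. Its log2 ratios of -0.03 and -0.14 turned positive under the 4 rescalings and centrings, up to 0.33 without AA and 0.17 with AA. *Bad* is the only member with more than 1 coding sequence group, and its 2 groups were summed. *Gpr137* overlaps it on the opposite strand. *Bcl2l11* (chromosome 2, 128126018 to 128162541), which is controlled by ERK signalling and FOXO factors, was at 6.26 FPKM with PBS and 4.92 with AA in DMSO, and 4.47 with PBS and 3.57 with AA in GSK-J4. Its log2 ratios of -0.41 and -0.37 were below 0 under the 11 alternative settings without AA and under the 10 with AA that gave a value, since a minimum of 5 FPKM removed it there. They lay between -0.48 and -0.08 without AA, or -0.45 and -0.10 with AA. The 5 BH3-only genes thus had log2 ratios between -0.41 and 0.98 without AA.

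**Figure D2:**
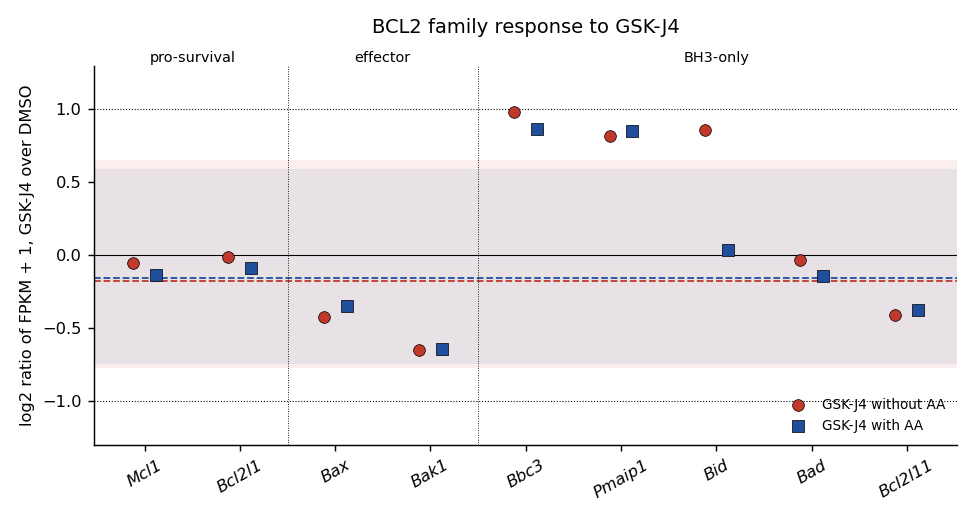
Log2 ratio of FPKM + 1, GSK-J4 over DMSO, for each member without AA (red circles) and with AA (blue squares), 1 library pair per point. Dashed lines mark the median of all genes (-0.17 and -0.16), shading the range that leaves out the highest and the lowest 10% of genes, and dotted lines the 2-fold threshold. *Bbc3* and *Pmaip1* lie above the shading in both comparisons, and *Bid* in 1.

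The effectors were lower with GSK-J4 in the deposited FPKM. *Bax* (chromosome 7, 45461511 to 45467148) was at 186 FPKM with PBS and 160 with AA in DMSO, and 138 with PBS and 125 with AA in GSK-J4. Its log2 ratios were -0.43 and -0.35, at percentile 30.2 and 34.3 of all genes. In its expression bin, the highest of 10 by mean FPKM, the median ratio of all genes with AA was -0.53, and relative to the median of that bin *Bax* turned to 0.16 without AA and 0.19 with AA. *Bak1* (chromosome 17, 27017997 to 27036373) was at 32.7 FPKM with PBS and 31.2 with AA in DMSO, and 20.5 with PBS and 19.7 with AA in GSK-J4. Both GSK-J4 libraries of *Bak1* were below both DMSO libraries, and the share of all genes with such a separation was not counted. With log2 ratios of -0.65 and -0.64 it had the lowest ratio of the members in both comparisons, and it stayed below 0 under all 11 alternative settings, between -0.67 and -0.28 without AA and between -0.66 and -0.32 with AA. *Bak1* overlaps *Ggnbp1* on the opposite strand and *Bax* overlaps *Gm45808* on its own strand in GENCODE M21, so reads at these genes could have been split.

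The pro-survival members had log2 ratios near 0. *Mcl1* (chromosome 3, 95658144 to 95663436), whose protein is short-lived and required in early embryos, was at 105 FPKM with PBS and 89.1 with AA in DMSO, and 101 with PBS and 80.9 with AA in GSK-J4. Its log2 ratios for GSK-J4 were -0.05 and -0.14. *Bcl2l1* (chromosome 2, 152780666 to 152831730) was at 15.5 FPKM with PBS and 15.6 with AA in DMSO, and 15.4 with PBS and 14.6 with AA in GSK-J4, the narrowest range of any member, with a highest value 1.07 times the lowest. Its log2 ratios were -0.01 and -0.09. The sign of these ratios depends on the scaling: with each library scaled to the same total they were 0.33 and 0.19 for *Mcl1* and 0.35 and 0.23 for *Bcl2l1*. Relative to the median of the expression bin they were 0.53 and 0.40 for *Mcl1* and 0.26 and 0.16 for *Bcl2l1*. The median of all genes in the bin of *Mcl1*, the highest of 10, was -0.59 without AA and -0.53 with AA.

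Contrasting the classes by their medians hid the movement within the pro-death genes. The median log2 ratio of the 7 pro-death members was -0.03 without AA and -0.14 with AA, against -0.03 and -0.11 for the 2 pro-survival members. Within the pro-death class, the 2 effectors had medians of -0.54 and -0.49. The 5 BH3-only genes had medians of 0.82 without AA and 0.04 with AA, and this difference comes from *Bid*, which is the middle value of the 5 with AA.

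Ratios within a library do not depend on how libraries are scaled, but they do follow shifts that differ with expression level. The median GSK-J4 ratio without AA was 0.30 in the lowest expression bin and -0.59 in the highest, which holds *Mcl1*. Relative to the medians of their bins, *Bbc3* had 1.34 and 1.16 and *Mcl1* 0.53 and 0.40, without and with AA. Summed FPKM of the BH3-only genes relative to that of *Mcl1* and *Bcl2l1* was 0.415 with PBS and 0.520 with AA in DMSO, and 0.655 with PBS and 0.726 with AA in GSK-J4. Both GSK-J4 libraries were above both DMSO libraries, by 1.58-fold without AA and 1.40-fold with AA. For the effectors the same ratio was 1.82 with PBS and 1.82 with AA in DMSO, and 1.36 with PBS and 1.52 with AA in GSK-J4, so it was lower in both GSK-J4 libraries. The ratio of all pro-death to pro-survival FPKM was 2.23 with PBS and 2.34 with AA in DMSO, and 2.02 with PBS and 2.25 with AA in GSK-J4. This ratio of sums was thus lower in the GSK-J4 library of each pair, whereas the ratio of geometric means of FPKM + 1 over the same members was higher, from 0.445 to 0.510 in PBS and from 0.479 to 0.531 in AA. *Bax* alone made up 69.2% of the pro-death FPKM with PBS and 65.1% with AA in DMSO, and 58.8% with PBS and 58.5% with AA in GSK-J4. *Bbc3* relative to *Mcl1* went from 0.137 with DMSO to 0.291 with GSK-J4 in PBS, 2.12-fold higher, and from 0.158 to 0.326 in AA, 2.07-fold higher. *Pmaip1* relative to *Mcl1* was 1.95-fold higher without AA and 2.16-fold higher with AA.

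**Figure D3:**
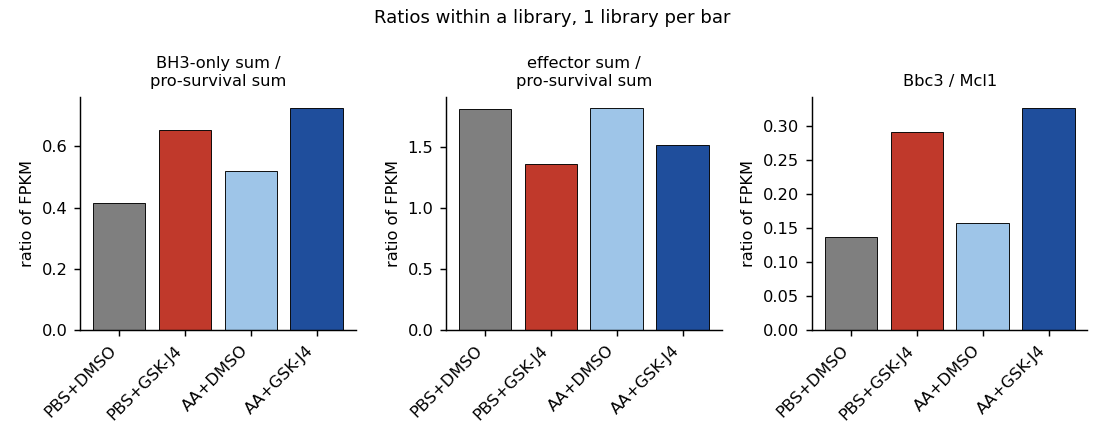
Ratios of FPKM within each of the 4 libraries, 1 library per bar, for summed BH3-only genes over *Mcl1* and *Bcl2l1* (left), summed effectors over the same (middle) and *Bbc3* over *Mcl1* (right). The left and right ratios are higher and the middle ratio lower in both GSK-J4 libraries, and how common such a separation is was not counted.

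The GSK-J4 comparisons without and with AA share no library. Neither is a replicate of the other, since the cells also differ in AA. A difference between their ratios mixes variation between libraries with any effect of AA. The SD of the difference between the 2 log2 ratios, over the genes of an expression bin, was between 0.12 and 0.35 for the bins that hold the members. The ratios with AA differed from those without by -0.12 for *Bbc3*, 0.04 for *Pmaip1*, 0.01 for *Bak1*, 0.08 for *Bax*, -0.08 for *Mcl1*, -0.07 for *Bcl2l1*, -0.11 for *Bad* and 0.03 for *Bcl2l11*. For 8 of the 9 members the comparisons differed by less than the SD in their own bin, and the share of all genes that did so was not counted. Differences at least as large as theirs were found for 53.5% (*Bbc3*) to 95.9% (*Bak1*) of all genes. *Bid* was the exception, with a difference of -0.82 against an SD of 0.19.

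Upstream DNA was compared for the members that RefSeq lists in the promoter table (GRCm38.p6), which were 8 of the 9 with 14 windows. *Pmaip1* had no window, so its upstream DNA was not searched. Each window held the 250 bases before a start. The letters searched on both strands were TGATGNAA (ATF4-C/EBP composite), GTAAACA (FOXO core) and CACGTG (E-box), together with the p53 half-site. They are found in 3.45%, 3.17%, 6.02% and 7.13% of all 32851 such windows. The FOXO core matched in a window of *Bbc3* and in one of *Bcl2l11*, the E-box in another window of *Bbc3* and in that of *Bax*, and the p53 half-site in that of *Bax*. No match overlapped another. These are matches of letters in a window, not sites of binding. In GENCODE M21 no printed window overlaps an exon, the *Bbc3* window lies in introns of longer *Bbc3* transcripts and the *Bax* window in an intron of *Gm45808*. The deposited loci of *Bbc3* and *Bax* contain their printed windows, and that of *Bcl2l11* contains the end of its window. The *Bbc3*, *Bcl2l11* and *Bax* windows are shown because these genes, all known to be controlled by such factors, had ratios of different sign. Capitals mark the matches.
*Bbc3*, chr7:16310011-16310260, plus strand, FOXO core 167 bases before the start: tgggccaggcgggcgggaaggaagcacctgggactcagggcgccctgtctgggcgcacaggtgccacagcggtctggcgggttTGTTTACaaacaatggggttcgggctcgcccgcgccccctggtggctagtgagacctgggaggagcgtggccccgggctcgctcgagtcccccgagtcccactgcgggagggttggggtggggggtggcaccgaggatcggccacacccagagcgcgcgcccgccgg
*Bcl2l11*, chr2:128125788-128126037, plus strand, FOXO core 227 bases before the start: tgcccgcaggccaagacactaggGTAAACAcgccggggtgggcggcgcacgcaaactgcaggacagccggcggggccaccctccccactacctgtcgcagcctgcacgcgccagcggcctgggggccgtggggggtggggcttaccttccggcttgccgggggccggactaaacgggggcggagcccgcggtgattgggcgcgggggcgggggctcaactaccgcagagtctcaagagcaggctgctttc
*Bax*, chr7:45466899-45467148, minus strand, p53 half-site 201 and E-box 9 bases before the start: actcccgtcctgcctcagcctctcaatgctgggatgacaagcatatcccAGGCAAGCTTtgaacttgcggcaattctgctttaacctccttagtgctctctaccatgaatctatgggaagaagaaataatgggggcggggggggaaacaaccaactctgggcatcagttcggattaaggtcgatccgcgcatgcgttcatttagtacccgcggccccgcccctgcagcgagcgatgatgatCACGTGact
*Bbc3* and *Bcl2l11* thus share the FOXO core while their log2 ratios without AA were 0.98 and -0.41. *Foxo3*, which encodes a FOXO factor, was at 11.1 FPKM with PBS and 9.90 with AA in DMSO, and 22.1 with PBS and 20.7 with AA in GSK-J4, log2 ratios of 0.94 and 0.99, and it was singled out after its values were seen. *Foxo1*, which encodes another FOXO factor, did not rise in this way, with log2 ratios of -0.19 without AA and 0.12 with AA. A part of FOXO factors in the member ratios was not tested.

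Genes that act with the BCL2 family were taken from 6 lists with 63 genes, of which 50 had a value. Without AA 47 of them reached an FPKM of 1, of which 9 rose and 1 fell past the 2-fold threshold, beside 4.96% and 3.5% of all genes. With AA the numbers were 9 higher and 1 lower of 49. The lists were chosen with earlier results of these data known, so these counts beside all genes are no independent support. The 10 genes past the threshold were the same in both comparisons. *Hrk*, *Fas* and *Trp73* were included only through the GSK-J4 libraries, and when both libraries had to reach an FPKM of 1, or one of them 5, 6 and 6 genes were higher. The median log2 ratio over the lists was 0.03 without AA and -0.06 with AA, against -0.17 and -0.16 for all genes.

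Of the 9 further BCL2 family and BH3 genes with a value, 8 were tested in each comparison. Only *Hrk*, a BH3-only gene known from neurons, was at least 2-fold higher, where 4.96% and 4.13% of all genes were. It was tested only because the GSK-J4 libraries reached an FPKM of 1. Its FPKM was 0.22 with PBS and 0.30 with AA in DMSO, and 1.51 with PBS and 2.49 with AA in GSK-J4, so it remained weak. None of these 8 was at least 2-fold lower. Among 16 apoptosome, caspase and mitochondrial release genes, only *Apaf1*, the scaffold of the apoptosome and a p53 target, was at least 2-fold higher. Its FPKM was 9.73 with PBS and 9.55 with AA in DMSO, and 28.4 with PBS and 25.5 with AA in GSK-J4, with log2 ratios of 1.46 and 1.33. None of that list was at least 2-fold lower, and its median was -0.37 without AA and -0.35 with AA. No IAP gene passed the threshold, among 3 tested without AA and 4 with AA. *Birc5* (survivin), the most abundant of them and singled out after its values were seen, had log2 ratios of -0.63 and -0.54. These were close to the medians of all genes in the highest expression bin, -0.59 without AA and -0.53 with AA.

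Among the death receptor genes, 1 of 7 without AA and 1 of 8 with AA were at least 2-fold higher, against 4.96% and 4.13% of all genes. This was *Fas*, which reached an FPKM of 1 only in the GSK-J4 libraries. Its FPKM was 0.29 with PBS and 0.26 with AA in DMSO, and 4.46 with PBS and 2.24 with AA in GSK-J4. The death receptor gene *Tnfrsf10b* was just under the threshold and is named after its values were seen, with log2 ratios of 0.92 and 0.90. Of the 5 genes listed for MCL1 turnover, 3 had a value, and *Huwe1* and *Usp9x* had none. *Fbxw7* and *Trib3* were at least 2-fold higher, whereas *Btrc* had log2 ratios of -0.49 without AA and -0.35 with AA. *Fbxw7*, the substrate adaptor of a ubiquitin ligase that targets MCL1, MYC and JUN, was at 5.81 FPKM with PBS and 6.09 with AA in DMSO, and 23.2 with PBS and 21.2 with AA in GSK-J4. *Trib3* is a pseudokinase known mainly as a stress-induced target of CHOP, and it had log2 ratios of 2.52 and 2.08.

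The list of upstream transcription factors and p53 control held 10 tested genes, with medians of 0.81 and 0.88. Of these genes, 4 rose and 1 fell past 2-fold in both comparisons. Of all genes, 4.96% without AA and 4.13% with AA were higher, and 3.5% and 3.38% lower. *Ddit3*, which encodes the stress factor CHOP, was at 6.64 FPKM with PBS and 7.45 with AA in DMSO, and 63.7 with PBS and 75.0 with AA in GSK-J4, log2 ratios of 3.08 and 3.17. *Mdm2*, a p53 target and p53 ligase, rose with log2 ratios of 1.84 and 1.83. *Trp73*, a p53 relative, rose from 0.51 to 3.07 FPKM in PBS and from 0.41 to 2.51 in AA. It was tested only because the GSK-J4 libraries reached an FPKM of 1. *Jun* rose by 1.31 and 1.08, and *Myc*, a driver of growth and of apoptosis, was the gene that fell, with log2 ratios of -1.12 and -1.20. *Trp53* itself did not pass the threshold, with log2 ratios of -0.89 and -0.72, and neither did *Atf4*, with 0.69 and 0.77. The p53 target *Cdkn1a* was at 24.5 FPKM with PBS and 22.5 with AA in DMSO, and 80.5 with PBS and 73.6 with AA in GSK-J4, log2 ratios of 1.67 and 1.67.

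**Figure D4:**
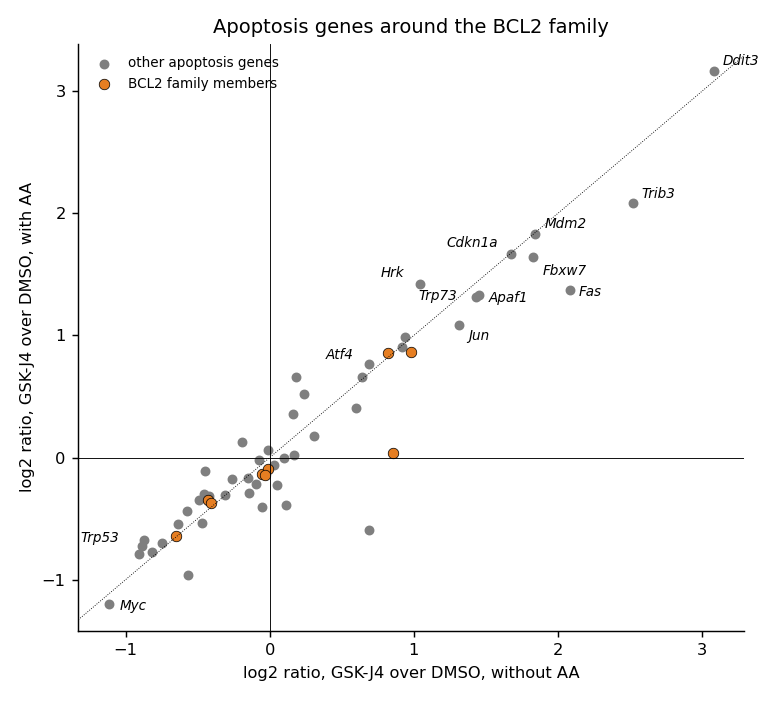
Log2 ratio of GSK-J4 over DMSO without AA (horizontal) and with AA (vertical) for the BCL2 family members (orange), the other apoptosis genes tested in both comparisons and *Cdkn1a* (grey); the dotted line marks equal ratios. Genes past 2-fold in both comparisons and *Trp53* and *Atf4* are named, and *Bid*, at 0.86 and 0.04, is the member that lies off the line.

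For AA itself the libraries come from different deposited tables, and both comparisons use libraries that the GSK-J4 comparisons also use. In DMSO 0 of 9 members were past 2-fold in either direction with AA, against 0.565% of 8843 genes higher and 0.735% lower. Under GSK-J4 the count was again 0 of 9, against 0.512% of 9180 genes higher and 0.599% lower. At 1.5-fold *Bid* was the 1 member higher in DMSO, with a log2 ratio of 0.77 at percentile 98.9, where 2.09% of genes were higher and 2.22% lower. None was past 1.5-fold under GSK-J4, where 1.71% of genes were higher and 2.54% lower. *Mcl1* had log2 ratios of -0.23 in DMSO and -0.31 under GSK-J4, *Pmaip1* had -0.30 and -0.26, and *Bcl2l11* had -0.29 and -0.26. In DMSO 6 of 9 members were below 0, where 62.4% of all genes were. Under GSK-J4 9 of 9 were below 0, where 55.4% of genes were, with a median of -0.14 against -0.02 for all genes. The member nearest 0 was *Bad* at -0.0043, which turned positive under 5 of the alternative settings. Among the further family members, *Bnip3*, a BH3-like mitophagy receptor and known HIF target, was singled out after its values were seen. Its FPKM was 46.4 with PBS and 19.7 with AA in DMSO, and 44.6 with PBS and 14.6 with AA in GSK-J4. Both AA libraries were below both PBS libraries, with log2 ratios of -1.19 in DMSO and -1.54 under GSK-J4. The share of all genes with such a separation was not counted.

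The genes nearest in pattern were sought for the members with the highest and lowest mean ratio. Likeness was the distance between the 4 log2(FPKM + 1) values after each gene's own mean was subtracted, over 4 libraries and 9362 other genes. For *Bbc3* the nearest were *Fam195b* at 0.036, *Pigf* at 0.052 and *Thbs1* at 0.055. For *Bak1* they were *Pelp1* at 0.0059, *Asf1b* at 0.016 and *Mrps22* at 0.016. Within a distance of 0.2 lay 151 genes for *Bbc3* and 1277 for *Bak1*, so the pattern of *Bak1* was the more common.

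**Figure D5:**
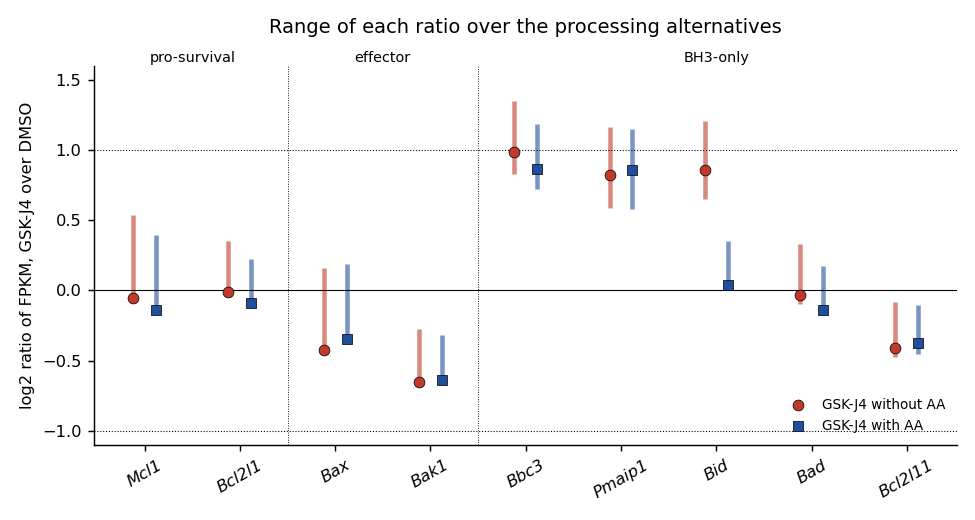
Log2 ratio of each member, GSK-J4 over DMSO, without AA (red) and with AA (blue). Values are on the log2(FPKM + 1) scale, points show the value as reported and bars the range over 11 alternative settings. The bars of *Bbc3*, *Pmaip1* and *Bid* stay above 0 and those of *Bak1* and *Bcl2l11* below it, whereas those of *Mcl1*, *Bcl2l1*, *Bax* and *Bad* cross 0.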

How the data were processed

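Total RNA of 4 conditions, with 1 library each, was assigned to conditions by the sample labels. Per the labels and the study's methods, the authors removed duplicates from single-end reads, aligned them to mm10 with TopHat2 and calculated FPKM with Cufflinks2. Duplicate removal can lower the values of abundant genes. The deposited FPKM columns are headed as log10 but hold linear FPKM. The authors' fold changes, test statistics, p-values and q-values in the same tables compare GSK-J4 with DMSO and were not used.

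From the deposited FPKM, coding sequence groups were summed per gene, and 157 of 9936 gene names with a failed estimate were left out. Log2 ratios used a pseudocount of 1 and the genes that reached an FPKM of 1 in 1 or both libraries compared. Calls used a 2-fold threshold. The calls were tested on simulated data. All members were named; other genes were named if past 2-fold in both GSK-J4 comparisons, together with *Trp53*, *Mdm2*, *Cdkn1a*, *Ddit3* and *Atf4*, and the 3 genes nearest in pattern to the members with the highest and lowest mean ratio. The members and lists were chosen with earlier results of these data known. The alternatives were other pseudocounts, filters, scalings, centrings, a 1.5-fold threshold and the highest coding sequence group of a gene.

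Depth is not given with the values. Steps of whole reads in weak genes gave depths relative to PBS+DMSO of 0.639 for PBS+GSK-J4, 0.796 for AA+DMSO and 0.523 for AA+GSK-J4, which are tentative, since 28.5% of values lay on steps there and 28.4% at the next best set. Python 3.11.15, numpy 2.4.6, pandas 2.3.3 and matplotlib 3.10.9 were used.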

Additional observations from a re-analysis of the deposited data

Results flagged for a closer look

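For 3 members the log2 ratio of AA over PBS had opposite signs without and with GSK-J4. *Bid* had 0.77 in DMSO and -0.054 under GSK-J4, *Bad* had 0.10 and -0.0043, and *Bcl2l1* had 0.0066 and -0.068. Each sign rests on 1 library pair, and the differences were not tested. The sign of *Bad* under GSK-J4 turned under 5 of the alternative settings, to 0.0065 with centring within expression bins, 0.015 with median centring, 0.017 with the same total, 0.018 with upper-quartile scaling and 0.125 with its highest coding sequence group. For *Bid*, PBS+DMSO was the library that stood apart from the other 3. No further member had opposite signs.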

How the results depend on the processing

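Each condition has 1 library, so no replicate could be left out and no result has a replicate check. The labels give no replicate numbers, and no fit with AA as a block was run. The log2 ratios of *Bbc3*, *Pmaip1*, *Bid*, *Bak1* and *Bcl2l11* kept their sign in both GSK-J4 comparisons under every alternative run, while those of *Mcl1*, *Bcl2l1* and *Bad* turned positive under all 4 rescalings and centrings, and that of *Bax* only relative to its bin of mean expression. The count of members at least 2-fold higher without AA, 0 as reported, was 1 with a pseudocount of 0.1, 2 with median centring and 3 with upper-quartile scaling, the same total or centring within expression bins. With AA, also 0 as reported, it was 2 with median centring, upper-quartile scaling or the same total and 1 with centring within expression bins. At 1.5-fold, 3 and 2 members were higher and 1 and 1 lower with GSK-J4, without and with AA in that order, and 1 was higher for AA in DMSO. The median of the members became 0.23, 0.33 and 0.26 without AA and 0.11, 0.19 and 0.19 with AA under upper-quartile scaling, the same total and centring within expression bins.

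Of the other apoptosis genes, 9 and 9 were higher as reported, 5 and 5 with a pseudocount of 5, 6 and 6 when both libraries had to reach an FPKM of 1 or one of them 5, and 15 and 14 at 1.5-fold, without and with AA. The number lower, 1 and 1 as reported, was 7 and 9 at 1.5-fold and 0 and 0 with a pseudocount of 5, upper-quartile scaling or the same total. It was 0 without AA with median centring or centring within expression bins, and with AA it was 3 with a pseudocount of 0.1 and 0 with the highest coding sequence group of a gene. As geometric means of FPKM + 1, the ratio of pro-death to pro-survival members was 0.445 with PBS and 0.479 with AA in DMSO, and 0.510 with PBS and 0.531 with AA in GSK-J4, higher with GSK-J4 where the ratio of sums, 2.23, 2.02, 2.34 and 2.25 in PBS+DMSO, PBS+GSK-J4, AA+DMSO and AA+GSK-J4, was lower. The cause of the differences between settings was not tested. In these 2 GSK-J4 comparisons depth is not given with the values, and weak genes such as *Hrk*, *Fas* and *Trp73* rest on FPKM below 1 in DMSO.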
